A study of Rattus norvegicus with 2 samples.

Results

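The genes described here are those of the cytosolic ribosomal proteins, measured in single leukocytes of the infarcted rat heart. Members were the symbols of the gene table that begin with Rps or Rpl followed by a number, with or without a suffix, plus Rpsa, Rplp0, Rplp1 and Rplp2. This gave 86 of 26976 symbols, of which 34 belong to the small subunit, 49 to the large subunit and 3 to the stalk of the large subunit. The choice used names and no measured value.

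Leukocytes were sorted with an antibody to CD45 from digested left ventricles, infarct and surrounding zone together, of wild-type rats 7 days after surgery. All animals had a myocardial infarction (MI). The labels give 1 sample to the group MI and 1 to the group MI+PUR-hAESC, in which a patch named PUR-hAESC was also applied. The sources name no strain, sex, age or number of hearts for either sample. The deposited matrix of unique molecular identifier (UMI) counts pools both samples and marks its barcodes with suffix 1 or 2. Which suffix belongs to which group could not be told, so values are given for library 1 and library 2. No direction between them can be read as an effect of the patch. With 1 library on each side there is no replicate check and no test. Intervals are 95% intervals that cover counting error only.

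A ribosome is built from a small subunit that reads the mRNA, a large subunit that joins amino acids, and a flexible stalk on the large subunit that recruits the elongation factors. Its proteins are needed in near-equal numbers, and their mRNAs are among the most abundant of a growing cell. Most of these mRNAs begin with a 5′ terminal oligopyrimidine (TOP) tract, a C followed by a run of C and T, through which the mTOR pathway and the protein Larp1 set how strongly they are translated. In blood and tissue leukocytes, ribosomal protein mRNA is known to be plentiful in resting lymphocytes and scarce in mature neutrophils.

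The tract could be read at the annotated start of 66 members with a RefSeq promoter sequence (assembly GRCr8). A C followed by at least 4 pyrimidines (each C or T), read on the strand of the gene and beginning at the first transcribed base, was present at 21 of 67 member promoters (31.3%), against 881 of 33469 promoters of all genes (2.63%). With the C allowed up to 5 bases to either side of the annotated start, the shares were 56.7% and 17.0%. A match is a description of these letters, and annotated starts can be off by a few bases. The windows below run from 10 bases before the start to 20 bases from it on, with the tract in capitals. They are shown because the results turn on these genes: 3 abundant members, 2 pairs of a subunit and its paralog, and Rps9. The 3 abundant members shown all have the tract and do not stand for abundant members in general. Rpl41, the member with the most UMIs, had none at its annotated start or within 5 bases of it. In these pairs the tract stands at the start of the main gene and not at the start of the paralog. Rps9 has no tract at its annotated start but has one within 5 bases of it, left in small letters below.
Rplp0 (chr12:46718371-46718400, minus strand): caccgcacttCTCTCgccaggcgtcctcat
Rplp1 (chr8:71290853-71290882, minus strand): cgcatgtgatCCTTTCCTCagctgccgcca
Rpl19 (chr10:83519054-83519083, plus strand): ccagcaagctCTTTCCTTTCgctgctgcgt
Rps27 (chr2:177964587-177964616, minus strand): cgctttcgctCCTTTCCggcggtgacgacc
Rps27l (chr8:76443648-76443677, plus strand): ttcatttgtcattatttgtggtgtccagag
Rpl22 (chr5:168117951-168117980, plus strand): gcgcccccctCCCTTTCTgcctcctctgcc
Rpl22l1 (chr2:113683186-113683215, plus strand): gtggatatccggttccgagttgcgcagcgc
Rps9 (chr1:74430418-74430447, minus strand): cggccacgtttctctttgtcacgggcctga

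Of the 86 members, 71 reached 20 CPM (UMIs of a gene scaled to a total of 1000000 UMIs per type and library) in at least 1 cell type and 15 did not. Rpl39, Rpl8, Rps29 and Rps15al4 had 0 UMIs among 155309082, which allows up to 0.0193 CPM. Rpl9 had 1 UMI, Rpl7a 8, Rpl35a 104 and Rplp2 116, although their proteins are core parts of every ribosome. The small-subunit gene Rps18 had 8328 UMIs, and Rps18l1, by its name a copy of it, had 560673. Rps6, whose protein is the classical target of S6 kinase, had 3626 UMIs, and the small-subunit gene Rps19 had 11749. Where a core subunit is near 0, its symbol cannot be taken as the level of the subunit, since counting can drop reads that copies share. Whether it did so was not tested. The 15 members under 20 CPM made up 0.00934% of the ribosomal protein UMIs. At the other end stood Rpl41 with 971258 UMIs, the stalk base Rplp0 with 948382 and the stalk protein Rplp1 with 762635, together 11.9% of the ribosomal protein UMIs. UMIs count tagged transcript ends and were not divided by length. Rpl36al (122456 UMIs) and Fau (611736 UMIs), whose small-subunit protein is made behind a ubiquitin-like domain, lie outside the naming rule.

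The libraries held 14283 and 15666 barcodes with 72506643 and 82802439 UMIs, and 71 barcode sequences occurred in both. Cell types were gated by at least 3 UMIs over at least 2 marker genes, with no ribosomal protein gene among the markers. Cells that met both the T and the NK cell gate were kept as T/NK. The sort marker Ptprc (CD45) stood between 519.5 and 1720 CPM in all 7 gated types present in both libraries and at 805.8 CPM in the thymocyte gate.

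Among the 7 types, ribosomal protein mRNA lay at 3 levels. In neutrophils it took 1.77% of all UMIs in library 1 (interval 1.76 to 1.78, 3612 cells) and 1.95% in library 2 (1.93 to 1.96, 1502 cells). Macrophages stood at 11.2% in both libraries (1751 and 1645 cells) and monocytes at 12.2% and 12.6% (658 and 351 cells). The lymphoid types lay above both. Natural killer (NK) cells had 17.4% and 18.1%, T/NK cells 18.6% and 19.0%, B cells 19.6% and 21.1%, and T cells 21.6% and 23.9%. The order of the 7 types was the same in both libraries. T cells thus held 12.2 and 12.3 times the neutrophil share and 1.93 and 2.13 times the macrophage share. Conventional dendritic cells, with only 51 and 34 cells, had 13.9% and 13.6%.

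**Figure D1:**
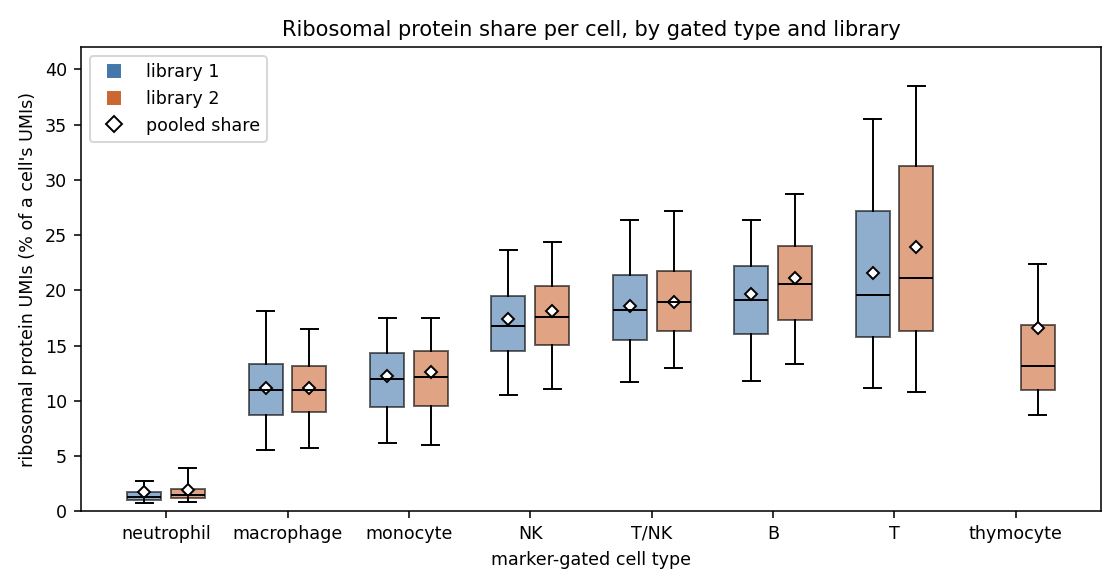
Ribosomal protein UMIs as a percent of a cell's UMIs (y axis) in each gated type (x axis), library 1 in blue and library 2 in orange. Boxes span the quartiles with the median as a line, whiskers run from the 5th to the 95th percentile of cells, and diamonds mark the pooled share, which rises from 1.77% and 1.95% in neutrophils to 21.6% and 23.9% in T cells.

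The separation of neutrophils held cell by cell. The median neutrophil had a share of 1.33% in library 1 and 1.52% in library 2, from 30 and 43 ribosomal protein UMIs a cell. A share under 5% was found in 3568 of 3612 neutrophils of library 1 and 1464 of 1502 of library 2, and in 7 of 1547 and 14 of 2735 T cells. Neutrophils were also the shallowest of the 7 types in both libraries, with medians of 2269 and 2636 UMIs a cell against 4395 and 4459 in T cells. Among cells with 4000 to 8000 UMIs alone, the share was 1.99% and 1.89% in neutrophils, 11.4% and 11.6% in macrophages, and 23.5% and 26.1% in T cells. Markers of other types were low but not absent in the neutrophil gate. All 7 T cell markers were detected there at a summed 25.4 and 32.1 CPM, against 4053 and 3716 CPM in T cells. The 8 macrophage markers summed to 49.7 and 54.6 CPM, against 9616 and 11330 CPM in macrophages. The 6 NK cell markers summed to 106.8 and 148.2 CPM, and the 3 erythroid genes to 4.38 CPM in library 1 and 1403 CPM in library 2. The part of RNA from other cells in the neutrophil share was not tested. In the monocyte gate the 4 fibroblast genes summed to 894.2 and 992.5 CPM, beside 5487 and 4726 CPM for the 3 monocyte markers. What this means for the monocyte values was not tested.

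Deep barcodes carried part of the neutrophil total. In library 1, 17 neutrophils with over 8000 UMIs (0.471% of the gate) had a share of 9.21% and held 18.3% of the gate's ribosomal protein UMIs. In library 2, 64 such cells (4.26% of the gate) had 2.76% and held 20.4%. Without cells over 8000 UMIs in any type, T cells held 14.9 and 13.8 times the neutrophil share.

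Both subunits followed the total. Small-subunit mRNAs made up 44.9% and 44.4% of the ribosomal protein UMIs in neutrophils and between 39.7% and 42.9% in the other types and libraries. The small-subunit gene Rps9 alone made up 10.8% and 9.23% in neutrophils, against 1.10% to 2.76% in the other types present in both libraries. The higher part in neutrophils therefore cannot be read as a tilt of the whole small subunit. The stalk genes, almost wholly Rplp0 and Rplp1, took a larger part in neutrophils (9.15% and 9.85%) and monocytes (9.47% and 9.22%) than in NK cells (6.72% and 6.64%), B cells (6.82% and 6.81%) or T cells (7.82% and 7.76%). Macrophages, at 7.84% and 7.70%, were close to T cells.

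T cells had the widest spread of the 7 types in percentage points, with a 5th to 95th percentile range of 11.2% to 35.5% in library 1 and 10.8% to 38.5% in library 2. Relative to its level the neutrophil share spread more widely, from 0.728% to 2.72% and from 0.859% to 3.91%. Each T cell state needed at least 2 UMIs over its own genes and fewer over those of the other. Naive-like T cells, gated by Lef1, S1pr1, Ccr7 and Tcf7, genes of recirculating resting T cells, had 29.0% (551 cells) and 30.6% (1268 cells). Effector T cells, gated by the cytotoxic genes Nkg7 and Gzmk, had 16.2% (518 cells) and 17.3% (771 cells), below the NK cell share in both libraries. T cells with neither or both states had 18.9% and 20.2%. Of the members tested between naive-like and effector T cells, 63 of 71 were more than 1.5-fold higher in naive-like cells in library 1, against 8.0% of all genes tested, and 58 of 70 in library 2, against 8.09%. The median log2 difference over members was 0.83 and 0.80, beside -0.14 and -0.14 over all genes. Past 1.5-fold lower were 2 of 71 members in library 1, against 18.8%, and 1 of 70 in library 2, against 19.3%. Rps27l had log2 differences of -0.66 and -0.86, and Rps4y2 had -0.64 in library 1 and was under 20 CPM in library 2. Both were singled out after their values were seen.

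The share was lower in dividing than in other T cells. T cells with at least 2 UMIs of cell division genes had 16.3% (139 cells) and 17.3% (278 cells), and the other T cells 22.5% and 25.2%. Division was more frequent among effector (12.2% and 21.0% of cells) than among naive-like T cells (3.09% and 2.60%). Dividing T cells were also deeper, with medians of 7632 and 7048.5 UMIs a cell against 4280 and 4337 in the others. State, division and depth were not separated. Dividing T/NK cells had 16.8% and 17.2%, the other T/NK cells 19.1% and 19.8%. The dividing ones were again deeper, with medians of 9859 and 9278 UMIs a cell against 4910 and 5531. NK cells showed no such gap, with 17.5% in dividing and 17.4% in other cells of library 1 and 17.9% and 18.2% in library 2. In macrophages, cells gated by the scar genes Spp1, Gpnmb, Trem2 and Fabp5 had 12.0% and 12.1%, and cells gated by the resident genes Lyve1, Folr2 and Cd163 had 11.7% and 11.0%. Neutrophils on the activated side (Il1b, Ptgs2, Cxcl3, Ccl3) had 1.88% (1722 cells) and 2.45% (395 cells). Those on the Retnlg side (Retnlg, Mmp8, Camp, Ltf) had less, 1.36% (509 cells) and 1.63% (344 cells). As medians over cells, the activated side had 1.48% and 1.99% and the Retnlg side 1.12% and 1.34%. The activated side was shallower, with medians of 2158 and 2253 UMIs a cell against 2495 and 2608. State and depth were not separated in neutrophils.

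**Figure D2:**
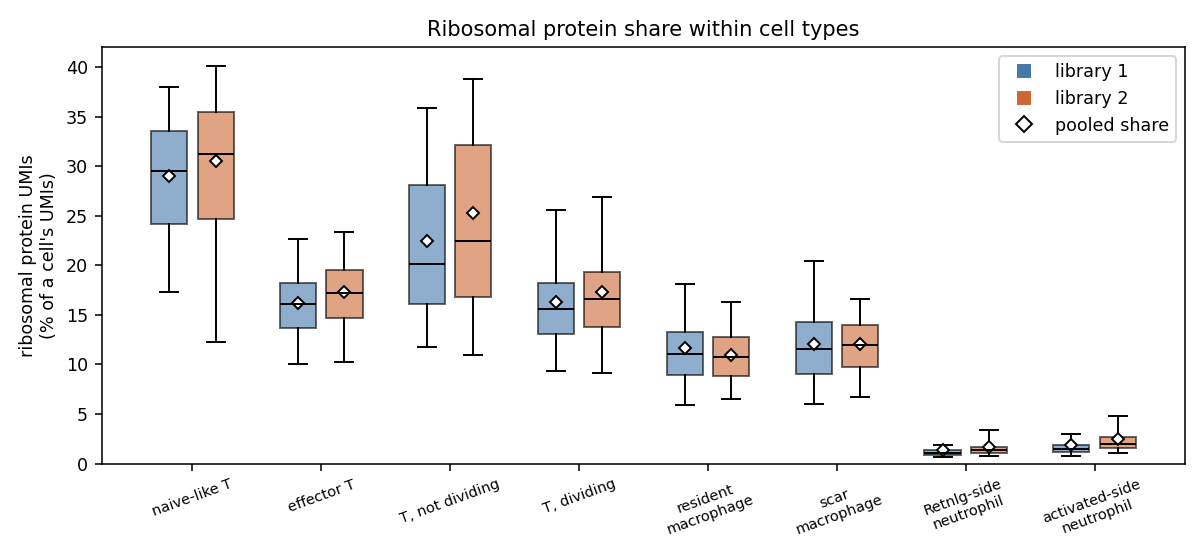
Ribosomal protein UMIs as a percent of a cell's UMIs (y axis) in states within the T cell, macrophage and neutrophil gates (x axis), drawn as quartile boxes with the median, 5th to 95th percentile whiskers and the pooled share as a diamond, library 1 in blue and library 2 in orange. Naive-like T cells reached 29.0% and 30.6%, effector T cells 16.2% and 17.3%.

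Between T cells and macrophages, nearly every member tested was higher in T cells. In library 1, 65 of 71 members were past 1.5-fold higher, against 27.4% of all genes tested, with a median log2 difference of 0.96 beside 0.15 for all genes. In library 2 it was 68 of 70 against 23.5%, with medians of 1.08 and 0.08. Log2 ratios here and below are of CPM + 10. Rplp1 stood at 8039 and 9638 CPM in T cells and at 3439 and 3308 CPM in macrophages. Rps18l1 stood at 6539 and 6524 CPM against 2337 and 2108 CPM, the highest ratio in library 1 (log2 1.48). Rpl12, a protein at the base of the stalk, stood at 1637 and 1891 CPM against 610 and 584 CPM, the highest ratio in library 2 (log2 1.68). Rpl5, which carries 5S rRNA into the large subunit, had log2 ratios of 1.23 and 1.42. At the lower end, Rpl41 (0.52 and 0.62), Rpl10 (0.54 and 0.55), Rps25 (0.54 and 0.71) and Rpl18 (0.60 and 0.66) were still higher in T cells.

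Rps27l was the 1 member past 1.5-fold lower in T cells in each library, against 22.8% and 23.9% of all genes tested. Its level was 143 (interval 135 to 152) and 139 (133 to 146) CPM in T cells and 339 (329 to 349) and 330 (319 to 341) CPM in macrophages, a log2 ratio of -1.19 in both libraries. The gene encodes a paralog of Rps27 and is known as a target of p53. B cells had less still, 79.5 and 79.8 CPM, and NK cells 104 and 131 CPM. Among the 6 types other than neutrophils, macrophages thus had the most Rps27l and B cells the least, while the whole set took its lowest share in macrophages.

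Between neutrophils and macrophages, 68 of 69 members were past 1.5-fold lower in neutrophils in library 1, against 50.8% of all genes tested, and 68 of 69 in library 2, against 55.7%. None was past it upwards, against 19.1% and 16.2%. The median log2 difference was -2.81 and -2.68, beside -0.61 and -0.77 for all genes. Rpl3, which lies near the peptidyl transferase centre, had the lowest mean ratio: 122 and 123 CPM in neutrophils against 1959 and 1731 CPM in macrophages (log2 -3.90 and -3.71). Rps18l1 (-3.65 and -3.72), Rpl22 (-3.60 and -3.68), Rps4x (-3.75 and -3.48) and Rps2 (-3.63 and -3.43) were close to it. Among members with 100 CPM or more in either type, the smallest deficits after Rps9 were those of Rps27 (-1.53 and -1.38), Rpl22l1 (-1.78 and -1.73), Rpl41 (-1.82 and -1.81) and Rps14 (-1.89 and -1.91).

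Rps9, a small-subunit protein at the mRNA entry side, was the exception. It stood at 1909 (interval 1881 to 1938) and 1796 (1759 to 1834) CPM in neutrophils and at 1891 (1868 to 1915) and 1741 (1716 to 1766) CPM in macrophages, log2 ratios of 0.01 and 0.04. Monocytes had 3380 and 2952 CPM, B cells 3293 and 3202, T cells 2727 and 2899, NK cells 2360 and 2131 and T/NK cells 2259 and 2094. All 7 types thus lay between 1741 and 3380 CPM. In neutrophils it made up 10.8% and 9.23% of the ribosomal protein UMIs, against 1.70% and 1.55% in macrophages. The sign of its ratio to macrophages depends on the scaling: it was 0.82 and 0.99 with TMM factors and -0.13 and -0.10 with CPM of the UMIs outside ribosomal protein genes. In RefSeq, Rps9 lies within the span of Pirb, a receptor gene of myeloid cells. Pirb itself was listed at 27.0 and 24.6 CPM in neutrophils and at 5.50 and 5.76 CPM in macrophages. Whether reads of the one were counted for the other was not tested.

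**Figure D3:**
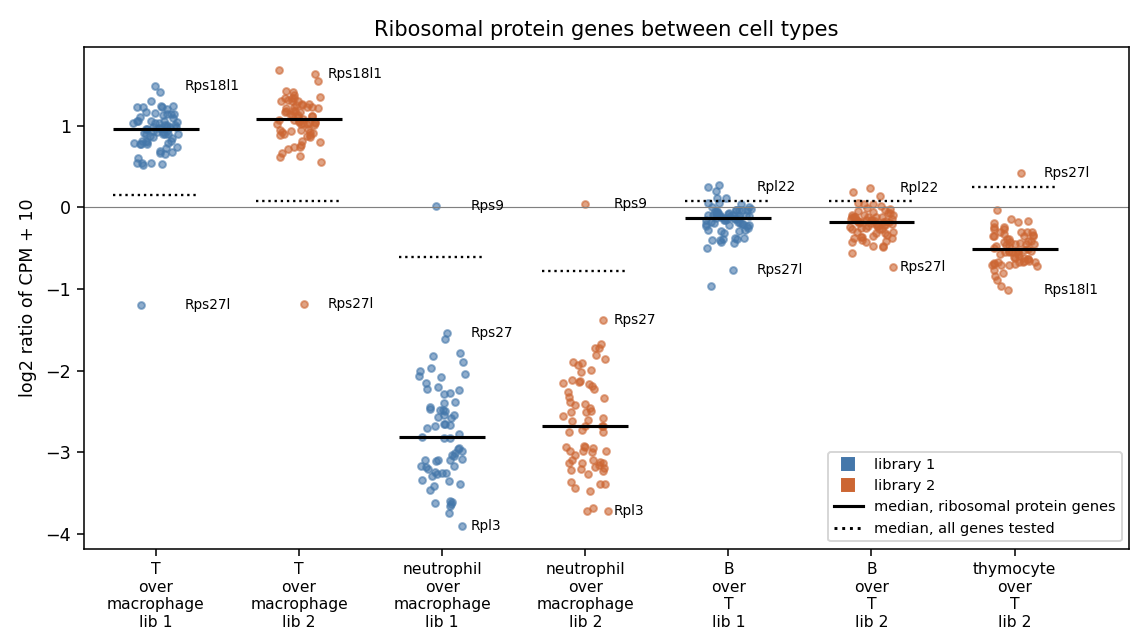
Log2 ratios of CPM + 10 between gated types (y axis) for each ribosomal protein gene with at least 20 CPM in either type (points), per contrast and library (x axis). Solid lines are medians of the ribosomal protein genes and dotted lines medians of all genes tested; Rps27l lies below 0 in the T over macrophage columns and Rps9 at 0.01 and 0.04 in the neutrophil columns.

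B and T cells were close. In library 1, 2 of 71 members were past 1.5-fold lower in B cells, against 13.7% of all genes tested, and in library 2 it was 1 of 70, against 12.7%. None was past it upwards, against 17.6% and 17.4%. Rps27l had the lowest mean ratio among the better expressed members (log2 -0.77 and -0.74), and Rpl12 (-0.40 and -0.56), Rplp1 (-0.42 and -0.47) and Rpl13 (-0.40 and -0.48) were also among the lowest. Rpl22 had the highest mean ratio of the better expressed members, with 1738 and 2173 CPM in B cells and 1465 and 1846 CPM in T cells (0.25 and 0.23). Rps9 (0.27 and 0.14) and Rpl35 (0.20 and 0.19) followed, the former at -0.00 in library 2 with TMM factors.

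The thymocyte gate (Rag1, Rag2, Dntt, Ptcra) held 643 of 14285 cells of library 2 and 0 of 13297 of library 1, which allows a share of up to 0.0226% there. Its share was 16.6%, and that of T cells of library 2 was 23.9%, but the gap depends on depth. Under 2000 UMIs, where 427 of the 643 cells lay, it was 12.45% against 13.2% in T cells. It was 17.3% against 23.4% at 2000 to 4000 UMIs and 16.6% against 26.1% at 4000 to 8000 UMIs. Over 8000 UMIs the direction turned, with 20.2% against 19.9%. Of 70 members, 25 were past 1.5-fold lower than in T cells, against 11.8% of all genes tested, and none was higher by that size, against 25.3%. The median was -0.52, beside 0.25 for all genes. Rps18l1 (-1.01), Rps19 (-0.96), Rps28 (-0.88), Rpl12 (-0.84) and Rpl10 (-0.81) were lowest. The Rps19 symbol was weakly counted, at 54.4 CPM from 110 UMIs in this gate against 115 CPM in T cells. Of the members tested Rps27l alone was higher, at 189 against 139 CPM (0.42). Within the gate, 113 dividing cells had 18.2% and the other 530 had 15.2%. The latter were shallow, with a median of 1619 UMIs a cell against 7373 in dividing cells. Without dividing cells in either type 50 members were past 1.5-fold lower, and without cells over 8000 UMIs it was 53.

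Among the ribosomal protein UMIs, 66 members made up at least 0.2% in some type, and 17 of them varied at least 2-fold over the 7 types in both libraries. With called doublets kept it was 7. Rps27l and Rps9 had the widest ranges (log2 3.34 and 3.66, and 3.15 and 3.06), followed by Rps18l1, Rpl3, Rpl22, Rpl13, Rps27, Rps4x, Rpl41 and Rps24. In all 10, neutrophils were at an end of the range in both libraries. Rpl41 made up 8.45% and 8.58% of the set in neutrophils, against 3.53% and 3.78% in T cells. Rps27 made up 4.98% and 6.58% in neutrophils, against 2.23% and 2.70% in monocytes. Rpl3 (0.687% and 0.631% in neutrophils, 1.77% and 1.70% in T cells), Rpl22, Rps4x and Rps24 took smaller parts in neutrophils than elsewhere.

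Paralogs shifted against their partners by cell type. Rpl22l1 encodes a second form of Rpl22, a large-subunit protein on the ribosome surface. It gave 62.9% of the UMIs of the pair in neutrophils of library 1 (interval 60.4 to 65.2, from 1005 and 594 UMIs) and 62.4% in library 2 (59.3 to 65.5). In the other 6 types it gave 26.9% to 38.1%, so neutrophils were the 1 type in which the paralog outnumbered Rpl22. Rps27l gave 11.6% and 8.97% of its pair with Rps27 in macrophages, 7.61% and 6.77% in neutrophils and 6.12% and 5.88% in monocytes. In lymphoid types it gave far less, down to 1.32% and 0.989% in B cells. Rpl36al gave 27.3% and 30.6% of its pair with Rpl36a in neutrophils and 50.8% and 57.6% in B cells. Rps18l1 gave 97.3% to 98.9% of its pair with Rps18 in all types, the thymocyte gate included. Rpl10l, known from testis, gave at most 0.0659% of its pair with Rpl10, and Rpl7l1 between 0.201% and 0.536% of its pair with Rpl7 outside neutrophils (2.91% and 2.56% there, from 47 and 23 UMIs). Rpl3l gave 4.66% and 5.35% of its pair with Rpl3 in neutrophils, from 53 and 35 UMIs, and at most 0.243% in any other type. Rpl39l with Rpl39 and Rpl35al1 with Rpl35a had too few UMIs to compare.

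**Figure D4:**
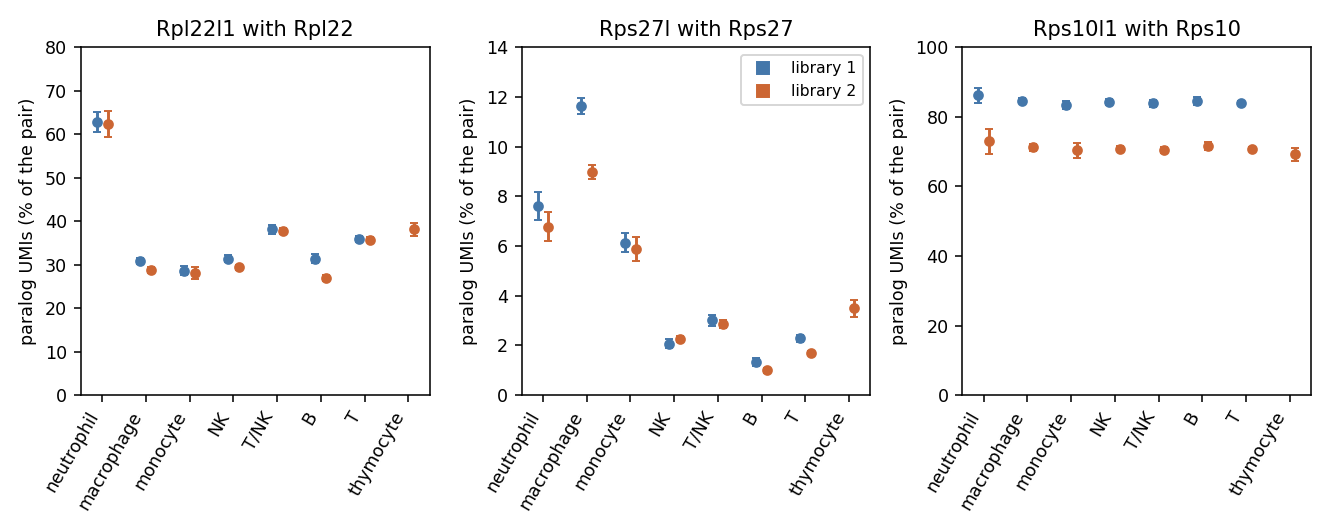
UMIs of a paralog as a percent of its pair (y axis; scales differ between panels) in each gated type (x axis), library 1 in blue and library 2 in orange, with exact binomial intervals for counting error. Rpl22l1 stands at 62.9% and 62.4% in neutrophils, Rps27l is highest in macrophages, and Rps10l1 differs between the libraries in each type.

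Between the libraries, the share was higher in library 2 in each of the 7 types. The difference was 2.35 percentage points in T cells, 1.46 in B cells, 0.685 in NK cells, 0.347 in T/NK cells, 0.339 in monocytes, 0.174 in neutrophils and 0.0460 in macrophages. Among cells with 2000 to 8000 UMIs it was -0.0478 in macrophages and -0.212 in monocytes, so in these 2 types the direction depends on depth. In T cells the make-up of the gate moved too: 35.6% of T cells of library 1 and 46.4% of library 2 were naive-like. Within the naive-like state (29.0% and 30.6%) and within the effector state (16.2% and 17.3%) library 2 was also higher. Markers of other cells differed between the libraries in the B gate. The 5 mast cell or basophil genes summed to 1043 and 2.02 CPM, the 4 fibroblast genes to 522 and 4.58 CPM and the 3 erythroid genes to 5.92 and 639.7 CPM. Erythroid genes also went from 10.3 to 560.1 CPM in macrophages. The part of these markers in the share differences was not tested.

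Gene by gene, few members were past the mark used between libraries, a log2 ratio of 0.32 either way. In T cells 13 of 71 were past it, against 8.65% of all genes tested. Of these, 12 were higher in library 2, against 3.64%, and 1 was lower, against 5.0%. In B cells 9 of 70 were past it (11.4% of all genes), all 9 higher, against 5.11%, and none lower, against 6.34%. In NK cells 7 of 70 were past it (12.2% of all genes), 5 higher and 2 lower, against 5.38% and 6.87%. In T/NK cells it was 8 of 71 (12.5% of all genes), 4 higher and 4 lower, each against 6.26%. In macrophages it was 8 of 69 (12.8% of all genes), 6 higher and 2 lower, against 8.41% and 4.36%. In monocytes it was 7 of 69 (26.1% of all genes), 5 higher and 2 lower, against 17.3% and 8.81%, but TMM factors turned this balance to 3 higher and 6 lower and the median from 0.02 to -0.09. In neutrophils 11 of 66 were past it (29.3% of all genes), all higher, against 9.55%, and none lower, against 19.7%. In NK cells, T/NK cells and macrophages these shares lay near those of all genes under CPM scaling. With TMM factors NK cells had 12 higher and 0 lower, and macrophages 4 higher and 3 lower. Without cells over 8000 UMIs the neutrophil count was 26. The median member differed by 0.11 (log2) in T cells, beside -0.04 for all genes, by 0.09 in neutrophils beside -0.10, and by -0.02 to 0.05 in the other types.

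Of 66 members tested in all 7 types, Rpl30, Rpl32 and Rps10 were past this mark upwards in library 2 in each of them. Rpl30, a large-subunit protein, stood in neutrophils at 61.4 CPM (interval 56.3 to 66.7) and 150 CPM (140 to 161), libraries 1 and 2. In macrophages it stood at 440 (429 to 452) and 828 (811 to 846) CPM, and in T cells at 984 (962 to 1006) and 1870 (1846 to 1893) CPM. Its log2 ratio ran from 0.75 in T/NK cells to 1.17 in neutrophils. Rps10, a small-subunit protein at the mRNA entry side, stood at 265 and 487 CPM in T cells and at 115 and 186 CPM in macrophages, with ratios from 0.66 to 0.85. Rpl32 stood at 1586 and 2377 CPM in T cells and at 710 and 934 CPM in macrophages, with ratios from 0.39 to 0.58. Rpl17 had ratios from 0.28 to 0.46. Rps12 (141 and 228 CPM, log2 0.66) and Rps27 (883 and 1281 CPM, log2 0.53) were the next highest named members in neutrophils.

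Rps10l1, by its name a copy of Rps10, went the other way. It stood at 1391 and 1182 CPM in T cells and at 632 and 463 CPM in macrophages, with ratios from -0.44 to -0.18 over the types. It gave 84.0% (interval 83.4 to 84.6) of the pair with Rps10 in T cells of library 1 and 70.8% (70.2 to 71.4) in library 2. The same gap was found in each type, from 86.3% and 73.0% in neutrophils to 83.6% and 70.4% in monocytes. How the counting treated reads shared by Rps10 and Rps10l1 is not given in the sources used here, so their separate levels are uncertain. Rps2 was lower in library 2 in all 7 types, with ratios from -0.34 in macrophages (3270 and 2577 CPM) to -0.08 in monocytes. Rps4y2, which lies within Tmtc1 in RefSeq, stood at 27.2 and 6.55 CPM in T/NK cells, the lowest ratio of any member (log2 -1.17). It was singled out after its values were seen.

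**Figure D5:**
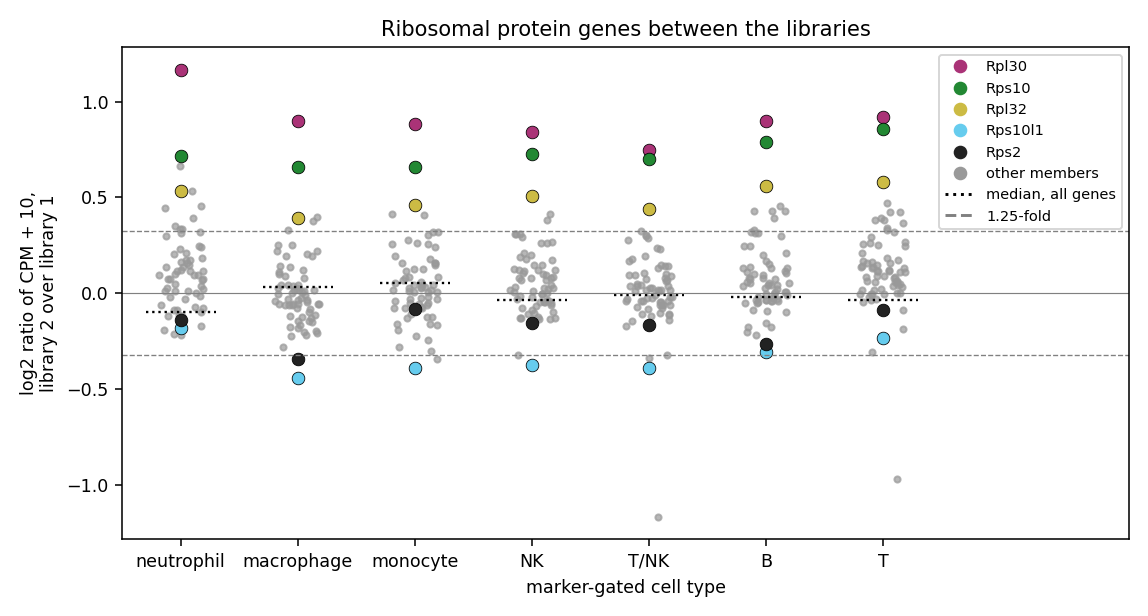
Log2 ratios of CPM + 10, library 2 over library 1 (y axis), for each ribosomal protein gene with at least 20 CPM in either library (points), by gated type (x axis). Dashed lines mark a log2 ratio of 0.32 either way and dotted lines the median of all genes; Rpl30, Rps10 and Rpl32 lie above the upper dashed line in all 7 types, and Rps10l1 and Rps2 lie below 0.

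Other genes of translation were read in the same contrasts. Fau, which encodes a small-subunit protein behind a ubiquitin-like domain, ranged from 1709 and 1975 CPM in neutrophils to 5225 and 5883 in B cells. Of 18 other TOP genes tested, 15 and 16 were past 1.5-fold higher in T cells than in macrophages, against 27.4% and 23.5% of all genes tested. All 18 were past 1.5-fold lower in neutrophils than in macrophages in both libraries, against 50.8% and 55.7%. Npm1, a nucleolar chaperone, stood at 1805 and 1886 CPM in T cells and 785 and 763 CPM in macrophages. Tpt1 stood at 8316 and 8039 CPM in T cells against 4639 and 3983, and Eef2, the translocation factor, at 1346 and 1410 against 727 and 710. Of 22 initiation factors, 2 and 3 were past 1.5-fold higher in T cells than in macrophages, below the 27.4% and 23.5% of all genes. In neutrophils 18 were past 1.5-fold lower than in macrophages in each library, against 50.8% and 55.7%. Eif1, which guards start codon choice, was higher in neutrophils: 5582 and 5243 CPM against 2117 and 2105 CPM in macrophages.

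Of 30 ribosome assembly genes tested, 10 and 14 were past 1.5-fold higher in T cells than in macrophages, against 27.4% and 23.5% of all genes, so that library 1 lay near the share of all genes. Among them was Ncl (703 and 723 against 451 and 451 CPM), a major protein of the nucleolus. Of 25 tested in neutrophils against macrophages, 21 and 23 were past 1.5-fold lower, against 50.8% and 55.7%. Of the mitochondrial ribosome, 2 of 56 and 1 of 58 genes were past 1.5-fold higher in T cells than in macrophages, against the same 27.4% and 23.5%, with medians of -0.08 and -0.09 beside 0.15 and 0.08 for all genes. In neutrophils 45 of 55 and 47 of 57 were past 1.5-fold lower, against 50.8% and 55.7%. Their medians were -1.49 and -1.41, beside -0.61 and -0.77 for all genes and -2.81 and -2.68 for the cytosolic members. Serbp1, which binds idle ribosomes, stood at 78.7 and 77.4 CPM in neutrophils, 423 and 450 in macrophages and 806 and 849 in T cells. Of 8 genes of the control list tested there, 1 (Max) and 2 (Max and Eif4ebp1) were past 1.5-fold higher in neutrophils, near the 19.1% and 16.2% of all genes. Max, a partner of Myc, stood at 709 and 714 CPM there against 65.2 and 74.8 in macrophages, and Eif4ebp1, the mTOR-regulated brake on cap binding, at 211 and 356 CPM against 139 and 127.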

How the data were processed

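CD45+ cells went through the Chromium 3′ chemistry (labels' protocols). Values are UMI counts, deposited without normalization; per the file headers, the authors used Cell Ranger 4.0.0. Genome build and annotation: not given in the sources used here. A deposited table of 33756 barcodes shares only 111 with the matrix at the same suffix and was not used. Rows of 1 symbol were summed (1453 symbols on several lines). Barcodes with under 200 genes or over 20% mitochondrial UMIs were left out (315 and 235), as were Scrublet doublets (671, or 4.80%, and 1146, or 7.43%; expected share 8%, per library, scanpy 1.11.5, cut-offs 0.264 and 0.219). Of the 13297 and 14285 cells kept, 10372 and 11646 met a gate; 2247 and 1971 met none (their ribosomal protein share was 10.6% and 10.9%), and 678 and 668 met several. Gates need 3 UMIs over 2 markers. Some listed markers were left out of the gates after their spread over barcodes was seen.

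UMIs were summed per library and gate with at least 100 cells in each library and scaled to CPM. Ratios are log2 of CPM + 10, over genes with 20 CPM or more on either side, for all genes. Called means past a log2 ratio of 0.32 between libraries and past 1.5-fold between types. Shares have exact binomial and levels exact Poisson intervals. No test was run, since cells of 1 library are not replicates. Members, lists, gates and contrasts were chosen with earlier results of these data known. Named members were the 3 highest and 3 lowest between libraries (5 gates) and the 5 highest and 5 lowest between types, both at 100 CPM or more. Also named were the 10 widest ranges in make-up, the 5 highest levels in T cells and macrophages, paralog pairs, and up to 4 genes of each translation list. The ratio script was tested on simulated counts of T cells (5280 genes) and neutrophils (3694 genes). At the mark used between libraries it recovered 85.0% and 82.0% of 1.4-fold and 99.0% and 100% of 2-fold changes. Of unchanged genes, 0.0197% and 0.143% were past the mark. The simulation held counting error only and cannot tell how libraries vary. Sequences and gene neighbours come from RefSeq, assembly GRCr8. Some genes of the lists are not reported here. Alternatives were TMM factors (edgeR 4.0.16, R 4.3.3), other filters, gates, depths and pseudocounts.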

Additional observations from a re-analysis of the deposited data

How the results depend on the processing

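No paired analysis was possible because the matrix holds 1 library on each side and no test was made. For T over neutrophil shares (12.2 and 12.3 times), the values were 15.2 and 14.5 with 2000 to 8000 UMIs a cell, 10.1 and 10.4 with doublets kept, 12.3 and 12.6 with 1 UMI more for a gate, 14.7 and 13.9 as medians over cells, 12.5 and 12.6 without mitochondrial UMIs, and 13.5 and 13.4 without dividing cells. Of the settings chosen after seeing the data, counting Fau and Rpl36al as members gave 11.36 and 11.44, and leaving out cells over 8000 UMIs gave 14.9 and 13.8. The share difference between the libraries turned to -0.0478 (macrophages) and -0.212 (monocytes) with 2000 to 8000 UMIs, and to -0.0589 and -0.163 without cells over 8000 UMIs. Rpl22l1 in neutrophils (62.9% and 62.4% of its pair) was 69.22% and 66.26% with 2000 to 8000 UMIs and 56.0% and 54.7% with doublets kept, and 69.88% in library 1 without cells over 8000 UMIs. Rps27l in macrophages (11.6% and 8.97%) was 9.815% and 7.947%, and 9.781% and 7.866%, under these limits on UMIs. The 17 members with a 2-fold range became 7 with doublets kept.

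Counts of members past the fold, in either direction, moved as follows. B over T (2 and 1) became 5 and 5 with TMM factors and 11 and 15 at a log2 mark of 0.32. It became 1 in library 1 at 100 CPM and 2 in library 2 with CPM outside ribosomal protein genes. Thymocyte over T (25) became 61 with TMM, 40 with CPM outside ribosomal protein genes, 57 at that mark, 50 without dividing cells and 53 without cells over 8000 UMIs. Between the libraries, the 1.5-fold mark left 2 in B cells, 2 in NK cells, 3 in T/NK cells, 3 in T cells, 2 in macrophages, 2 in monocytes and 3 in neutrophils. TMM gave 12 in NK cells and 17 in neutrophils. In monocytes TMM changed 5 higher and 2 lower to 3 and 6, in NK cells 5 and 2 to 12 and 0, in macrophages 6 and 2 to 4 and 3, and in neutrophils it gave 17 and 0 for 11 and 0. In T/NK cells both depth limits gave 5. The neutrophil count (11) was 23 with 2000 to 8000 UMIs, 26 without cells over 8000 UMIs, 7 with doublets kept and 7 at 100 CPM. TMM moved the median of all genes by 0.64 and 0.75 in neutrophil over macrophage, where the members' median became -2.02 and -1.77. The cause of these changes was not tested. Cells under 2000 UMIs, such as most thymocytes, limit what can be read of single members there.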
